A study of Homo sapiens with 18 samples.

Results

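Proliferating IMR90 cells, primary human lung fibroblasts of wild-type genotype, were given RG7388 or the solvent DMSO, and their poly(A) RNA was sequenced. The libraries were picked by their sample labels. They are 6 of the 18 libraries of the series, 3 with RG7388 and 3 with DMSO, and are described across all genes. The series also holds proliferating cells given HDM201 and irradiated senescent cells given RG7388, HDM201 or DMSO. Treatment of irradiated cells began on day 4 and RNA was taken on day 11, and no separate exposure time is given for proliferating cells. The question was what an MDM2 inhibitor changes in dividing fibroblasts that were never irradiated.

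RG7388 (idasanutlin) occupies the pocket of MDM2 that binds p53. MDM2 is a ubiquitin ligase that marks p53 for destruction, and MDM2 is itself a p53 target, so the pair form a feedback loop. Stabilized p53 binds the regulatory regions of genes that stop the cell cycle, repair DNA, lower p53 again or promote cell death. One of these targets encodes p21, which blocks cyclin-dependent kinases and so keeps the repressor complex DREAM on promoters of cell-division genes, many of which carry a CHR element and CCAAT boxes.

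RG7388 libraries held 24279641 to 34022779 counted reads and DMSO libraries 25122199 to 66647700. Levels are given as CPM, the read count of a gene relative to the library total after TMM scaling (trimmed mean of M values), so levels of different genes are not adjusted for length. Changes are log2 fold changes of RG7388 over DMSO ± SE, and a gene was called at an edgeR adjusted p under 0.05 over the 18151 genes tested. The labels do not say how replicates were made, and the study counts a single culture well as a replicate. The p-values measure the spread between wells within the 6 groups of the series, fitted together over all 18 libraries. They thus include irradiated and HDM201 wells, and that spread may be technical. DMSO replicate 1 stood apart on the first principal component of the 6 libraries, which carried 35.1% of the variance. RG7388 replicate 2 was low in AT-rich transcripts: among well expressed genes, in the sixth with the lowest GC content, its median log2 level was -0.30 from the mean of the 6 libraries, while the other 5 libraries lay between -0.03 and 0.15. Mesenchymal markers, COL1A1 and VIM among them, were abundant and summed to 52110 to 57912 CPM with RG7388 and 44425 to 50154 CPM with DMSO, and 1 of 14, TCF21, was called higher (0.55). Leukocyte markers summed to 2.12 to 2.58 CPM with RG7388 and 1.83 to 2.75 CPM with DMSO, with CD3E and PTPRC among the 8 of 13 too low to test. Endothelial markers summed to 93.5 to 97.3 CPM with RG7388 and 90.1 to 97.5 CPM with DMSO. Of 14 epithelial markers, 8 were too low to test, CDH1 among them, and the tested ones summed to 322.3 to 350.1 CPM with RG7388 and 274.5 to 293.2 CPM with DMSO.

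**Figure D1:**
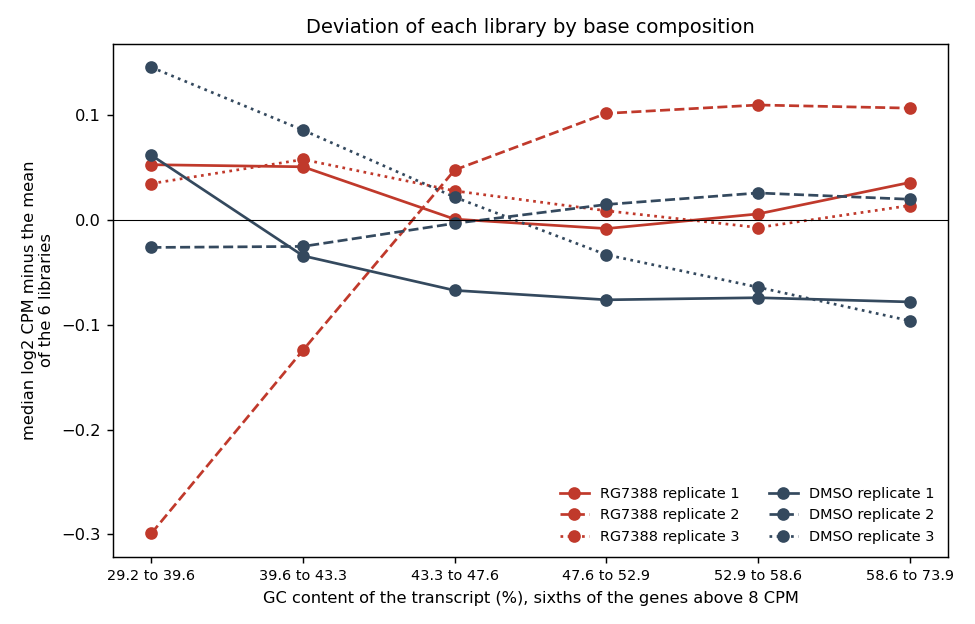
Median deviation of each library's log2 CPM from the mean of the 6 libraries (y axis) in sixths of the well expressed genes ordered by GC content of the transcript (x axis, percent), for the 3 RG7388 and the 3 DMSO libraries. RG7388 replicate 2 runs from -0.30 in the lowest sixth to 0.11 in the highest, and DMSO replicate 3 from 0.15 to -0.10.

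Most called genes were higher with RG7388, by a margin that moved with the processing. Of the 18151 genes tested, 217 (1.2%) were higher and 62 (0.342%) lower with RG7388, and 40 (0.22%) and 12 (0.0661%) of these changed at least 2-fold. In each called gene the 3 RG7388 libraries lay on one side of the 3 DMSO libraries, while over all genes tested this held for 15.2% above and 10.6% below. The median of all genes was -0.00. The smallest p among the rises belonged to the p53 targets CDKN1A, SPATA18, TRIM22, BTG2, TNFRSF10C and GDF15 and to the complement gene C7. The smallest p among the falls belonged to MYH11 and DES, which encode proteins of contractile cells, and to PTGIS, which makes prostacyclin. Of the called genes, 60 of 217 higher and 9 of 62 lower ones kept their call whichever of the 6 libraries was left out, and no called gene changed sign in these 6 leave-outs. The number of calls and the share of higher ones depended on the setting. On these 6 libraries alone edgeR called 619 genes higher and 462 lower. With offsets for GC content and length it called 456 higher and 397 lower. It called 955 higher and 481 lower when both IR_DMSO replicate 1 and Prolif_HDM201 replicate 3, the outlying libraries of their groups, were left out. Without DMSO replicate 1 and RG7388 replicate 2 it called 51 higher and 8 lower.

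**Figure D2:**
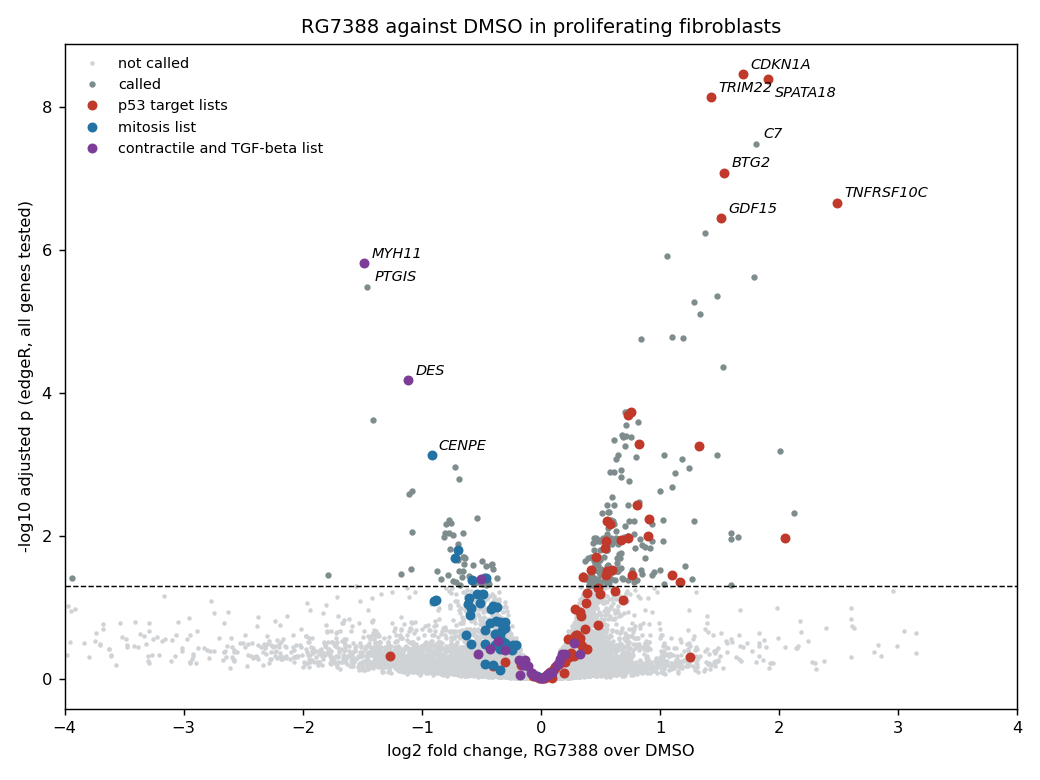
Each gene's log2 fold change of RG7388 over DMSO (x axis) against -log10 of its adjusted p from edgeR (y axis), with the p53 target, mitosis, and contractile and TGF-beta lists coloured and the dashed line at an adjusted p of 0.05. The p53 targets stand out on the right up to TNFRSF10C at 2.49, and MYH11 at -1.48 has the smallest p among the falls. Beyond 4 on either side, 39 genes lie outside the axis, 2 of them called.

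Many targets of p53 rose. Over 5 lists of p53 targets, 29 of 82 genes tested were called higher and 0 lower (edgeR, with 1 lower at an unadjusted p under 0.05 and 0 lower by DESeq2 or limma), where 1.2% of all genes were called higher. Their median log2 fold change was 0.33, against -0.00 over all genes, and 71 of 82 were positive, against 49.3% of all genes. With offsets for GC content and length 38 of 82 were higher, where 2.51% of all genes were. The lists hold genes whose response to p53 is textbook knowledge, and the count ran from 11 genes without DMSO replicate 1 and RG7388 replicate 2 to 46 without IR_DMSO replicate 1 and Prolif_HDM201 replicate 3, with 0 lower in either.

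Of 13 p53 targets listed under cell-cycle arrest, not all of them known to act in arrest, 5 rose: CDKN1A, BTG2, PLXNB2, PLK3 and SESN1. For comparison, 1.2% of all genes were called higher. CDKN1A (chromosome 6, 36676460 to 36687337, hg38), which encodes p21, had 733, 797 and 715 CPM in the RG7388 libraries, against 222, 246 and 226 CPM in the DMSO libraries. It had the smallest p of all genes and was 3.24-fold higher (1.69 ± 0.11, adjusted p = 3.52e-09, edgeR). BTG2, an antiproliferative cofactor of mRNA decay, had 9.51, 11.5 and 10.1 CPM with RG7388 and 3.32, 3.58 and 3.85 CPM with DMSO (2.90-fold, adjusted p = 8.38e-08, edgeR). For both genes the groups were far apart. PLXNB2 (0.56), PLK3 (0.55) and the stress-induced sestrin SESN1 (0.55) rose less, and each lost its call when certain single libraries were left out: PLXNB2 without DMSO replicate 1 (edgeR adjusted p = 0.0603), PLK3 in 4 of 6 cases (up to 0.104) and SESN1 in 5 of 6 (up to 0.252). TOB1, another antiproliferative factor, was at 0.50 ± 0.13 and was not called (adjusted p = 0.0659, edgeR), though 5 of 19 alternative runs called it.

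Among regulators of p53 and targets listed with them, 5 of 11 rose (CMBL, TP53INP1, AEN, PIDD1 and MDM2) and the list median was 0.46. The share of all genes called higher was 1.2%. MDM2 (chromosome 12, 68808177 to 68845544), the target of the compound, had 73.8, 53.2 and 65.1 CPM with RG7388 and 34.7, 33.7 and 44.8 CPM with DMSO. The groups did not overlap, the lowest RG7388 library being replicate 2, and MDM2 was 1.70-fold higher (0.76 ± 0.18, edgeR adjusted p = 0.036). That call was lost in 4 of 6 leave-outs (up to 0.198) and with library totals alone (0.118). CMBL, a hydrolase gene not known as a regulator of p53, was steadier at 17.2, 17.2 and 14.3 CPM with RG7388 against 9.87, 9.01 and 8.45 CPM with DMSO (0.83 ± 0.12), and was called in each leave-out. TP53INP1 (0.54), AEN (0.46) and PIDD1 (0.59) lost their calls in 3, 6 and 6 of the 6 leave-outs (edgeR adjusted p up to 0.0974, 0.144 and 0.189). PPM1D, the phosphatase WIP1 that switches p53 signalling off, was at 20.7, 21.3 and 22.1 CPM with RG7388 and 17.6, 17.6 and 17.4 CPM with DMSO and was not called (0.28 ± 0.11, edgeR adjusted p = 0.252).

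**Figure D3:**
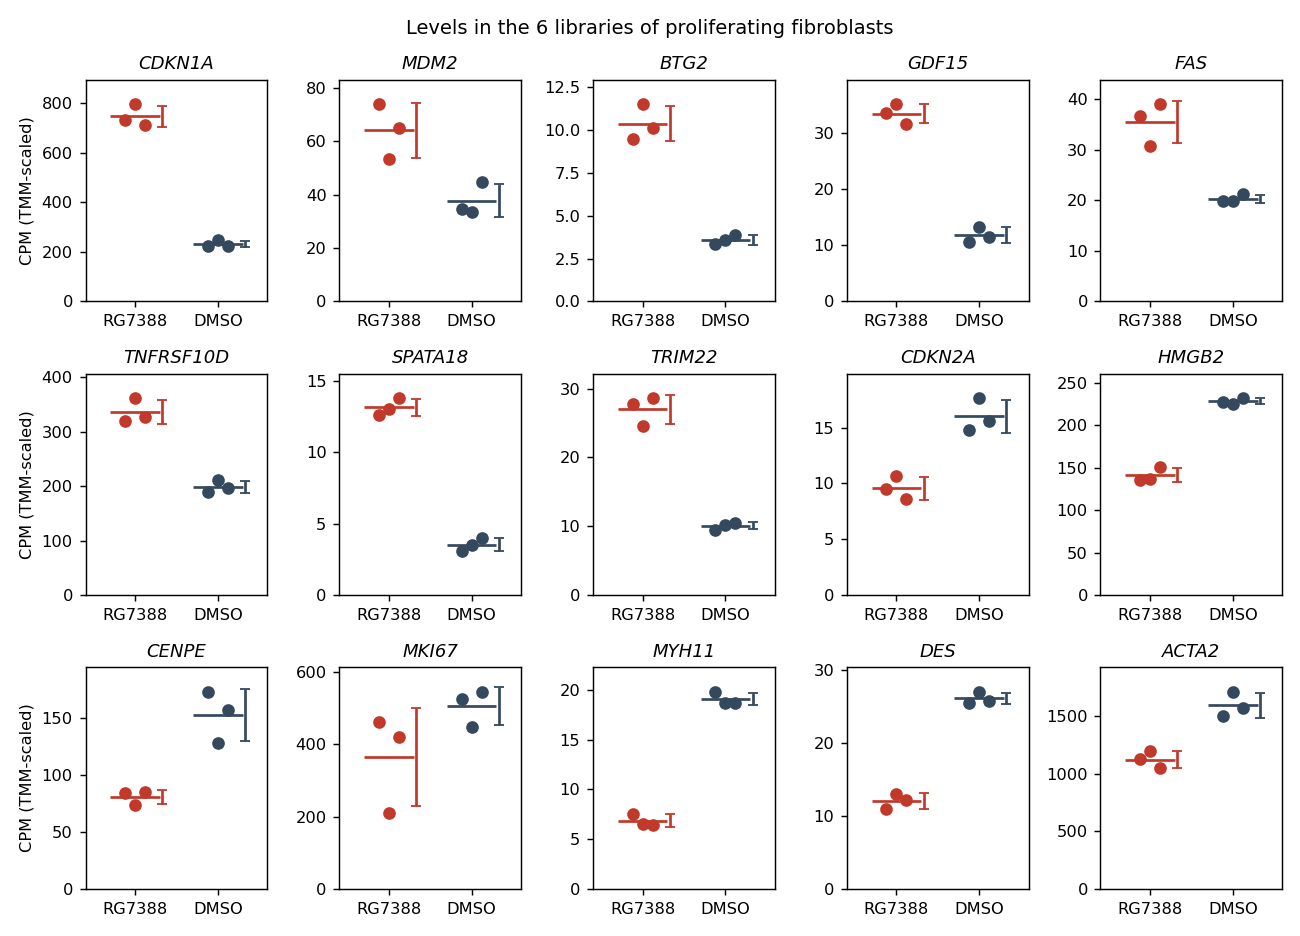
Levels in CPM (y axis) of 15 genes in the 3 RG7388 (left, red) and 3 DMSO (right, grey) libraries, each dot a library, with the mean as a line and the SD as a bar. The groups stay apart in 14 genes. In MKI67 they overlap through RG7388 replicate 1, while RG7388 replicate 2 lies below all DMSO libraries at 210 CPM.

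Receptors of extrinsic cell death rose. Of 13 genes of death and survival, 6 were higher, where 1.2% of all genes were: TNFRSF10C, TNFRSF10D, TNFRSF10B, FAS, BCL2L1 and TNFRSF10A. The first 3 and TNFRSF10A are the TRAIL receptors, similar neighbours on chromosome 8, so reads may be shared between them. TNFRSF10B (DR5), which carries a death domain, had 188, 211 and 192 CPM with RG7388 and 115, 124 and 116 CPM with DMSO (0.73 ± 0.10). The decoy receptor TNFRSF10D, which lacks a working death domain, had 319, 361 and 327 CPM with RG7388, against 189, 211 and 196 CPM with DMSO (0.76 ± 0.10, adjusted p = 0.000185, edgeR). TNFRSF10C, a decoy held by a lipid anchor, was scarce but rose the most, with 2.84, 2.21 and 2.27 CPM against 0.448, 0.302 and 0.492 CPM with DMSO (5.61-fold, 2.49 ± 0.22). TNFRSF10A (0.73 ± 0.15) was called too, though not without DMSO replicate 1 or RG7388 replicate 1 (edgeR adjusted p up to 0.142 over the leave-outs).

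FAS, the receptor of Fas ligand, had 36.7, 30.8 and 39.0 CPM with RG7388 and 19.9, 19.8 and 21.3 CPM with DMSO (1.75-fold, adjusted p = 0.00378, edgeR). FAS and ACTA2 overlap on chromosome 10, and whether counting used strand is not given in the sources used here, so reads in the shared stretch could belong to either. BCL2L1, which encodes the survival protein BCL-XL, also rose (0.58 ± 0.11), a call lost without DMSO replicate 3 (edgeR adjusted p = 0.0571). BAX and BBC3 encode proteins that open the mitochondrial route to apoptosis. BAX was at 110, 132 and 113 CPM with RG7388 and 81.0, 92.3 and 82.2 CPM with DMSO, a difference just short of a call (0.48 ± 0.12, edgeR adjusted p = 0.054). In 6 of 19 alternative runs BAX was called. BBC3 (PUMA) was at 12.71, 13.01 and 11.96 CPM with RG7388 and 10.25, 11.25 and 8.172 CPM with DMSO (edgeR adjusted p = 0.348).

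Among 10 p53 targets listed under DNA repair, not all of them repair genes, 2 rose and 0 fell (edgeR, with 5 higher and 0 lower at an unadjusted p under 0.05, 3 and 0 by DESeq2 and 0 and 0 by limma). edgeR called 1.2% of all genes higher. FDXR, a mitochondrial reductase listed here as a p53 target, had 18.1, 19.9 and 16.8 CPM with RG7388 and 8.80, 10.2 and 10.5 CPM with DMSO (0.90 ± 0.18), a call lost without DMSO replicate 1 or RG7388 replicate 2 (edgeR adjusted p up to 0.0934). DDB2, which finds ultraviolet damage, had 40.4, 41.8 and 39.2 CPM with RG7388 and 28.1, 27.4 and 27.0 CPM with DMSO (0.56 ± 0.13), a call lost in each of the 6 leave-outs (edgeR adjusted p = 0.0908 to 0.135). XPC, its partner in damage recognition, was at 38.5, 41.3 and 40.3 CPM with RG7388 and 33.1, 35.0 and 34.4 CPM with DMSO. The groups did not overlap, yet XPC was not called (0.23 ± 0.09, edgeR adjusted p = 0.278).

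The remaining 35 targets, of metabolism, secretion and other roles, held 11 that rose, where 1.2% of all genes were called higher. SPATA18, which encodes a mediator of mitochondrial quality control, had 12.6, 13.1 and 13.8 CPM with RG7388 and 3.07, 3.49 and 4.02 CPM with DMSO (3.75-fold, adjusted p = 4.15e-09, edgeR). TRIM22, an antiviral ubiquitin ligase, had 27.8, 24.6 and 28.6 CPM with RG7388 and 9.51, 10.2 and 10.5 CPM with DMSO (2.69-fold). GDF15, a secreted stress cytokine, had 33.5, 35.0 and 31.6 CPM with RG7388 and 10.6, 13.3 and 11.4 CPM with DMSO (2.86-fold, adjusted p = 3.66e-07, edgeR). In SPATA18, TRIM22 and GDF15 the groups were clear of each other, and the calls held in every alternative run. CYFIP2 (1.33), which acts on actin assembly, the receptor gene EDA2R (0.91), the apoptosis gene PHLDA3 (0.67) and the RNA-binding protein gene ZMAT3 (1.10) rose too, though PHLDA3 lost its call in 3 of 6 leave-outs (edgeR adjusted p up to 0.0836). The ephrin receptor gene EPHA2 (0.42), DRAM1 (0.36), which acts in autophagy, and FUCA1 (1.17), which encodes a lysosomal fucosidase, rose with calls lost in 6, 6 and 5 of the 6 leave-outs (edgeR adjusted p up to 0.216, 0.231 and 0.307). INPP5D (2.05), a lipid phosphatase gene at under 1 CPM, lost its call without RG7388 replicate 3 or DMSO replicate 3 (edgeR adjusted p up to 0.0783). ZMAT3 was at 65.0, 39.0 and 58.8 CPM with RG7388 and 23.1, 24.0 and 29.0 CPM with DMSO, with replicate 2 again the lowest of its group, and its call was lost in 5 of 6 leave-outs (edgeR adjusted p up to 0.196).

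The mitosis list leaned to lower values throughout. All 47 tested had a negative log2 fold change, against 50.7% of all genes, and in 43 of 47 the 3 RG7388 libraries lay below the 3 DMSO libraries, against 10.6% of all genes. The shifts were modest, from -0.92 to -0.03 with a median of -0.40, and 5 genes were called lower (CENPE, TTK, KIF18A, MYBL2 and MAD2L1) where 0.342% of all genes were. None was called higher by edgeR, DESeq2 or limma, or at an unadjusted p under 0.05. With 1 library left out, 1 to 3 were called lower, without DMSO replicate 1 and RG7388 replicate 2 the number was 0, and without IR_DMSO replicate 1 and Prolif_HDM201 replicate 3 it was 32. The median ran from -0.44 to -0.37 over these leave-outs. RG7388 replicate 2, low in AT-rich transcripts, was also the lowest of its group in several of these genes. With offsets for GC content and length, 33 of 47 were lower (2.19% of all genes were), with a median of -0.43.

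CENPE, the kinetochore motor that lines chromosomes up, had 83.8, 73.7 and 84.9 CPM with RG7388 and 173, 128 and 157 CPM with DMSO (1.89-fold lower, -0.92 ± 0.14, edgeR adjusted p = 0.000749). TTK, the checkpoint kinase MPS1, had 42.9, 42.0 and 44.1 CPM with RG7388 and 72.3, 66.9 and 70.0 CPM with DMSO (-0.70 ± 0.15). The groups did not overlap in either gene, but the TTK call was lost in 5 of 6 leave-outs (edgeR adjusted p up to 0.0934). The motor KIF18A (-0.72), the division factor MYBL2 (-0.46) and the checkpoint protein gene MAD2L1 (-0.58) fell as well, and their calls were lost in 5, 6 and 6 of the 6 leave-outs (edgeR adjusted p up to 0.147, 0.216 and 0.244). CDK1, the kinase that drives entry to mitosis, was at 73.6, 68.7 and 80.5 CPM with RG7388 and 115, 107 and 116 CPM with DMSO and missed the threshold (-0.60 ± 0.17, edgeR adjusted p = 0.0749). It was called in 5 of 19 alternative runs. MKI67, a marker of cycling cells, was at 463, 210 and 421 CPM with RG7388 and 526, 447 and 545 CPM with DMSO. The groups overlapped through RG7388 replicate 1, and the difference was not called (edgeR adjusted p = 0.627). CCNB1, which encodes cyclin B1, was at 193, 220 and 207 CPM with RG7388 and 235, 270 and 260 CPM with DMSO (-0.30 ± 0.11, edgeR adjusted p = 0.197). In bulk RNA, fewer cells in a phase and less transcript in each cell cannot be told apart.

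Reference promoters were searched for the motifs named above. RefSeq promoters (GRCh38.p14, 250 bases before to 50 after the start, the first listed start of each gene) were found for 12300 of the genes tested. A CHR element (TTTGAA or TTCGAA, either strand) stood in 69.2% of 39 mitosis promoters and 11.7% of all promoters, and CCAAT in 74.4% and 36.2%. Both motifs stood together in 59% of mitosis promoters and 4.92% of all. Among called genes, CHR was in 26.7% of 45 promoters of lower genes and 11.7% of 163 promoters of higher genes. The p53 site, taken as a pair of adjacent 10-base motifs with intact cores and at most 2 mismatches over 20 bases, was in 1 of 66 p53 target promoters (1.52%), 2 of 163 promoters of higher genes (1.23%), 1 of 45 of lower genes (2.22%) and 0.203% of all, too few matches to set the groups apart. The promoters of the mitosis genes and p53 targets with the smallest p that had one are shown 5′ to 3′, CHR and CCAAT in capitals on either strand, to let these motifs be read in place.
CENPE: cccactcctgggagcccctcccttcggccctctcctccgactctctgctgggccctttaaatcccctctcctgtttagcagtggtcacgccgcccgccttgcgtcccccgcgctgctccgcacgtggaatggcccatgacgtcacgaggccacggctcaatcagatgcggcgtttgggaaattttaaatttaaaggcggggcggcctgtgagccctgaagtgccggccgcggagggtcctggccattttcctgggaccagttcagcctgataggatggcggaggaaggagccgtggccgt
KIF18A: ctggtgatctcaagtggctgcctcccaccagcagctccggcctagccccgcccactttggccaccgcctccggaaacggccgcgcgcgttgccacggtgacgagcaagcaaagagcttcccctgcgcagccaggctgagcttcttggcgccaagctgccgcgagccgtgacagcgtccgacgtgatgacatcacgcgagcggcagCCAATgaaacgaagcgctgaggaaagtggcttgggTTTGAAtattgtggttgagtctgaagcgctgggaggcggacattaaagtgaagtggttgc
MYBL2: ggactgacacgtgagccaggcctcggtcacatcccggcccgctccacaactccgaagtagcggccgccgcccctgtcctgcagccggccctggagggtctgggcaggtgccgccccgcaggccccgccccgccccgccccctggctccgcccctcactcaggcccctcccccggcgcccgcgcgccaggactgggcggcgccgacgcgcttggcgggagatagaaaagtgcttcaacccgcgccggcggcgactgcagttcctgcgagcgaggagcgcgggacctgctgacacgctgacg
MAD2L1: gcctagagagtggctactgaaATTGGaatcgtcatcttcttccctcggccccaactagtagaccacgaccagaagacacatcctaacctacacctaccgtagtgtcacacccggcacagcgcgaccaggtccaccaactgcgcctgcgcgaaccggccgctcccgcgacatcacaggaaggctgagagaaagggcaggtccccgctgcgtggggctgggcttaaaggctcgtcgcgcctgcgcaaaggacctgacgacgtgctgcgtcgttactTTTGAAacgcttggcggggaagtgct
CDKN1A: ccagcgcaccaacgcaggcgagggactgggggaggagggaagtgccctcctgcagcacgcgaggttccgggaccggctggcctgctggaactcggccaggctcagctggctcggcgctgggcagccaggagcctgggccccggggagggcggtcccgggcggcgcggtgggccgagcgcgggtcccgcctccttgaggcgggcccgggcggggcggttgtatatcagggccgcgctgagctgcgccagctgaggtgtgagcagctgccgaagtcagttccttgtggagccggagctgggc
SPATA18: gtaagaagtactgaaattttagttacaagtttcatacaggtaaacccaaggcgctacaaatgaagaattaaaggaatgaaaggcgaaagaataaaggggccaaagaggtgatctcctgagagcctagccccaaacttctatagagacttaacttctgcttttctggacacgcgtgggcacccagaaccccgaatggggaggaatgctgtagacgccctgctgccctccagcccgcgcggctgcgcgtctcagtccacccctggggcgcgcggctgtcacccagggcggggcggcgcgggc
KIF18A (chr11:28108107-28108406, minus strand) carries CCAAT and CHR at 45 and 10 bases before its start. MAD2L1 (chr4:120066799-120067098, minus strand) has ATTGG, the reverse complement of CCAAT, at 229 bases before its start and CHR at 25 bases after. CENPE (chr4:103198294-103198593, minus strand), MYBL2 (chr20:43666864-43667163, plus strand), CDKN1A (chr6:36678464-36678763, plus strand) and SPATA18 (chr4:52051054-52051353, plus strand) hold none of the 3 motifs in this window. A match is a description of letters, not of binding.

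None of 45 replication and E2F genes was called by edgeR, with 0 higher and 9 lower at an unadjusted p under 0.05, 0 and 1 by DESeq2 and 0 and 0 by limma. Their median was -0.15 and 40 were negative, against 50.7% of all genes. RRM2, the ribonucleotide reductase subunit used in S phase, was at 338, 375 and 346 CPM with RG7388 and 373, 411 and 396 CPM with DMSO, with overlap between the groups (edgeR adjusted p = 0.662). Of 32 genes of homologous recombination and the Fanconi pathway, BRCA2 alone was called. It had 10.1, 7.81 and 9.86 CPM with RG7388 and 22.9, 16.5 and 19.5 CPM with DMSO (-1.09 ± 0.25, edgeR adjusted p = 0.0298), a call lost in 5 of 6 leave-outs (up to 0.171). The list median was -0.24 with 31 of 32 negative, against 50.7% of all genes, of which 0.342% were called lower. Of 25 genes of end joining and break signaling, edgeR called 0, with 0 higher and 4 lower at an unadjusted p under 0.05, 0 and 1 by DESeq2 and 0 and 0 by limma.

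Regulators of G1 went both ways. Of 23, CCND2 and CCND1, which encode D cyclins, were higher, and CDKN2A and CDKN1B, which encode the inhibitors p16 (with ARF) and p27, were lower. The shares called over all genes were 1.2% higher and 0.342% lower. CCND2 had 12.1, 13.4 and 13.8 CPM with RG7388 and 3.85, 5.09 and 6.83 CPM with DMSO (2.53-fold, adjusted p = 7.93e-06, edgeR). CDKN2A (chromosome 9, 21967752 to 21995301) had 9.47, 10.7 and 8.61 CPM with RG7388 and 14.8, 17.6 and 15.6 CPM with DMSO. It was 1.67-fold lower without overlap (-0.74 ± 0.15, edgeR adjusted p = 0.00972), a call lost without DMSO replicate 2, RG7388 replicate 1 or RG7388 replicate 3 (up to 0.0872). CCND1 (0.45) and CDKN1B (-0.44) lost their calls in each of the 6 leave-outs (edgeR adjusted p up to 0.198 and 0.214).

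Nuclear lamina and chromatin genes that are low in senescence had a median of -0.35, with 2 of 15 called lower (HMGB2 and TMPO) and 0 higher (edgeR, with 2 higher at an unadjusted p under 0.05 and 0 by DESeq2 or limma). The share called lower over all genes was 0.342%. HMGB2, a chromatin protein of dividing cells, had 135, 137 and 151 CPM with RG7388 and 227, 225 and 232 CPM with DMSO (1.62-fold lower, -0.69 ± 0.12, edgeR adjusted p = 0.00163). LMNB1, the lamin lost in senescence, was at 97.9, 107 and 109 CPM with RG7388 and 141, 144 and 149 CPM with DMSO. Its groups did not overlap, but it was not called (-0.47 ± 0.13, edgeR adjusted p = 0.0772), except in 4 of 19 alternative runs. TMPO (-0.46) lost its call in each of the 6 leave-outs (edgeR adjusted p up to 0.261).

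Replication-dependent histone genes, whose transcripts mostly lack poly(A) tails, are poorly sampled by poly(A) selection. Of 41, 3 rose (HIST1H2AC, HIST2H2BE and HIST1H2BK, the last lost in each of the 6 leave-outs) and 0 fell (edgeR, with 5 lower at an unadjusted p under 0.05, 1 by DESeq2 and 0 by limma), yet the median was -1.08. Of all genes tested, 1.2% were called higher. The summed level was 54.5 to 58.9 CPM with RG7388 and 44.7 to 83.5 CPM with DMSO, the highest being DMSO replicate 1. HIST1H2AC had 10.9, 11.7 and 11.9 CPM with RG7388 and 6.30, 5.82 and 7.41 CPM with DMSO (0.82 ± 0.12, adjusted p = 0.000255, edgeR). Histone genes are near-identical copies, so reads may be split among them.

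The contractile list held the smallest p among the falls, while most of its members were not called. Of 30 contractile and TGF-beta response genes, 3 fell (MYH11, DES and ACTA2) and 0 rose (edgeR, with 1 higher at an unadjusted p under 0.05 and 0 by DESeq2 or limma), and the median was -0.03. Over all genes tested, 0.342% were called lower. MYH11, the heavy chain of smooth muscle myosin, had 7.57, 6.53 and 6.38 CPM with RG7388 and 19.8, 18.7 and 18.7 CPM with DMSO (2.80-fold lower, -1.48 ± 0.15, edgeR adjusted p = 1.54e-06). DES, which encodes the muscle filament desmin, had 10.91, 13.01 and 12.19 CPM with RG7388 and 25.5, 27.0 and 25.8 CPM with DMSO (2.17-fold lower). Both kept their calls in every alternative run. ACTA2, smooth muscle actin, had 1128, 1199 and 1048 CPM with RG7388 and 1502, 1712 and 1573 CPM with DMSO (-0.50 ± 0.12, edgeR adjusted p = 0.0409), a call lost in each of the 6 leave-outs (up to 0.208). The abundant contractile genes TAGLN (-0.19, edgeR adjusted p = 0.551) and CNN1 (-0.31, 0.405) were not called.

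Of 42 collagen and matrix genes, COL14A1, FBLN1 and TNC fell and 0 rose (edgeR, with 8 higher at an unadjusted p under 0.05, 1 by DESeq2 and 0 by limma). Genes called lower made up 0.342% of all genes tested. TNC, the adhesion-modulating protein tenascin C, had 2624, 2801 and 2613 CPM with RG7388 and 3582, 3816 and 3787 CPM with DMSO (-0.48 ± 0.12). FBLN1, which encodes fibulin 1, was at -0.46 ± 0.11 and COL14A1, a collagen on fibril surfaces, at -0.64 ± 0.14. The calls of TNC and FBLN1 were lost in each of the 6 leave-outs and that of COL14A1 in 5 (edgeR adjusted p up to 0.168, 0.156 and 0.138). The list median was 0.06.

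**Figure D4:**
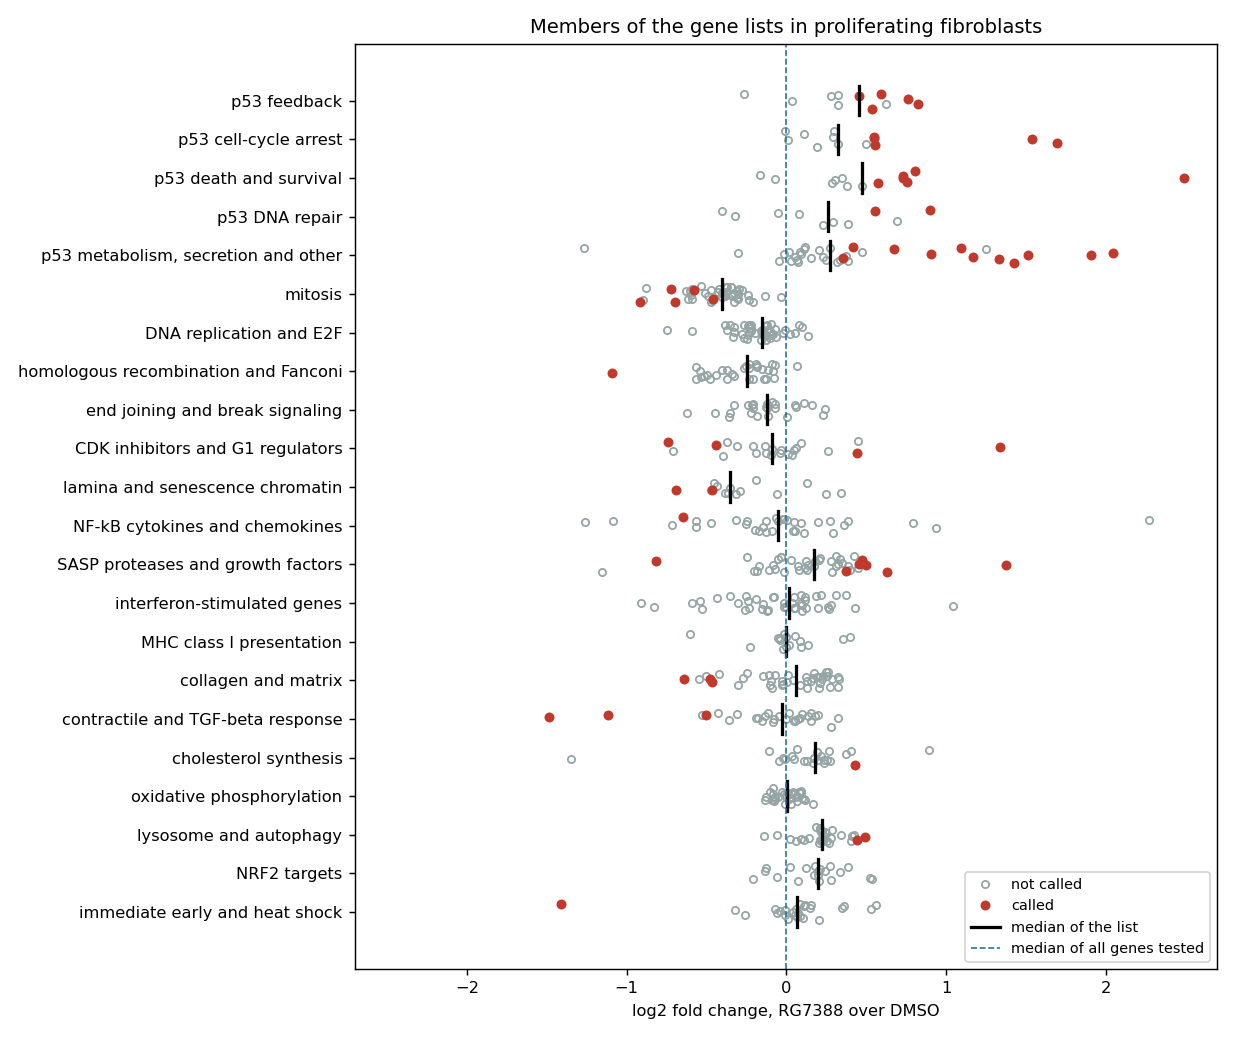
Log2 fold changes of RG7388 over DMSO (x axis) of the members of 22 gene lists (rows), with called genes filled red, others open, the median of each list as a black bar and the median of all genes as a dashed line. All 47 mitosis genes lie left of 0, the 5 p53 target lists hold red points on the right only, and 2 members lie beyond the axis limits.

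Calls among inflammatory genes were about as frequent as over all genes, of which 1.54% were called. Of 35 NF-kB cytokines and chemokines, edgeR called 1 lower (VCAM1) and 0 higher, and the median was -0.05. At an unadjusted p under 0.05 edgeR gave 2 higher and 3 lower. DESeq2 called 1 higher and 3 lower, and limma 0 and 0. CXCL8, a neutrophil chemokine, was at 6.72, 4.85 and 5.46 CPM with RG7388 and 8.70, 7.72 and 8.61 CPM with DMSO. The groups did not overlap, but the difference missed the threshold (-0.56 ± 0.15, edgeR adjusted p = 0.0656). CXCL8 was called in 6 of 19 alternative runs. IL6 was at 8.93, 8.78 and 8.58 CPM with RG7388 and 8.53, 10.2 and 11.0 CPM with DMSO, and IL1A and IL1B also overlapped between groups (edgeR adjusted p = 0.687, 0.837 and 0.728). VCAM1, a leukocyte adhesion molecule, had 9.87, 8.51 and 9.16 CPM with RG7388 and 14.6, 13.3 and 15.2 CPM with DMSO (-0.65 ± 0.15, edgeR adjusted p = 0.0246), a call lost in 5 of 6 leave-outs (up to 0.144) and with GC and length offsets (0.166). Of 44 interferon-stimulated genes edgeR called 0, with 2 higher and 0 lower at an unadjusted p under 0.05 and 0 by DESeq2 or limma, and the median was 0.02. Of 16 genes of MHC class I presentation edgeR called 0, with 2 higher and 1 lower at an unadjusted p under 0.05, 2 and 0 by DESeq2 and 0 and 0 by limma.

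Some secreted growth factor genes rose. Of 41 secreted proteases and growth factors linked to senescence, 6 rose (WNT16, ANGPTL4, NRG1, HBEGF, VEGFC and PLAU) and WNT2 fell. Among all genes tested, 1.2% were called higher and 0.342% lower. WNT16, a secreted ligand that lung fibroblasts make in senescence, had 7.39, 7.59 and 7.34 CPM with RG7388 and 2.90, 2.93 and 2.76 CPM with DMSO (2.60-fold, adjusted p = 5.88e-07, edgeR). WNT2, another ligand of the family, had 8.52, 7.23 and 7.21 CPM with RG7388 and 12.4, 14.4 and 13.7 CPM with DMSO (-0.82 ± 0.17). The groups were apart in both genes, and the WNT2 call was lost in 4 of 6 leave-outs (edgeR adjusted p up to 0.0800). ANGPTL4 (0.63), NRG1 (0.47), HBEGF (0.50), VEGFC (0.37) and the protease gene PLAU (0.45) rose less, and each lost its call in 3 to 6 of the leave-outs (edgeR adjusted p up to 0.169).

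Calls among genes of cell maintenance are likewise to be read against the 1.54% of all genes called. Among 30 lysosome and autophagy genes, GABARAPL1 (0.44), which builds autophagosomes, rose, a call lost in 5 of 6 leave-outs (edgeR adjusted p up to 0.105). Of the 30, 28 were positive, against 49.3% of all genes, and the median was 0.22. edgeR called 0 of 32 nuclear genes of oxidative phosphorylation (0 at an unadjusted p under 0.05 and 0 by DESeq2 or limma), and their log2 fold changes lay between -0.13 and 0.16. For 20 NRF2 targets edgeR called 0, with 7 higher and 0 lower at an unadjusted p under 0.05, 3 and 0 by DESeq2 and 0 and 0 by limma. For 25 genes of the integrated stress and unfolded protein response edgeR called 0, with 1 higher and 1 lower at an unadjusted p under 0.05, 0 and 1 by DESeq2 and 0 and 0 by limma. Of 26 listed heat shock and immediate early genes, EGR2 alone was called, with 3.34, 2.47 and 2.81 CPM with RG7388 and 8.73, 6.94 and 7.11 CPM with DMSO (-1.41 ± 0.20, edgeR adjusted p = 0.000241). The list does not hold every heat shock gene: HSPB8, outside it, rose (1.06, edgeR adjusted p = 1.23e-06).

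Outside the lists, large changes were found in genes of varied function. C7, a terminal component of complement, had 7.30, 9.26 and 8.52 CPM with RG7388 and 2.76, 2.37 and 1.94 CPM with DMSO (3.50-fold, adjusted p = 3.28e-08, edgeR). HSPB8, a small heat shock protein gene, had 23.5, 22.7 and 22.1 CPM with RG7388 and 10.7, 10.7 and 11.3 CPM with DMSO (2.09-fold). LYNX1, which encodes a modulator of acetylcholine receptors, was 3.45-fold higher and PTCHD4, a patched-domain gene, 4.03-fold higher. Among the falls, PTGIS, prostacyclin synthase, had 7.08, 7.19 and 6.99 CPM with RG7388 and 18.8, 18.4 and 21.2 CPM with DMSO (2.75-fold lower, -1.46 ± 0.15, edgeR adjusted p = 3.32e-06). FGL2, a fibrinogen-like secreted protein gene (-1.08), APLN, which encodes the peptide apelin (-1.10), and PIM1, a survival kinase gene (-0.72), fell without overlap between the groups.

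Several keratin and keratin-associated genes on chromosome 17, picked out after their values were seen, were called higher. Of 5 keratin-associated protein genes tested, 3 were higher (KRTAP1-5, KRTAP2-3 and KRTAP4-12), with a family median of 1.48. Of 11 keratin genes 4 were higher (KRT19, KRT34, KRT17 and KRT15), with a family median of 0.26. In both families 0 were lower, and 1.2% of all genes were called higher. KRTAP4-12, KRT17 and KRT15 lost their calls in 2, 2 and 4 of the 6 leave-outs (edgeR adjusted p up to 0.128, 0.0828 and 0.0752). KRTAP1-5 had 13.3, 13.5 and 13.4 CPM with RG7388 and 4.59, 5.73 and 4.29 CPM with DMSO (2.78-fold). KRT19, an epithelial marker that these fibroblasts also express, had 51.7, 58.2 and 48.4 CPM with RG7388 and 25.1, 24.2 and 24.4 CPM with DMSO (2.15-fold, adjusted p = 1.65e-05, edgeR). The other 5 tested epithelial markers were not called. On chromosome 19, PSG4 and PSG5, pregnancy-specific glycoprotein genes, were higher among 6 tested, whose median was 0.64. PSG4 had 54.1, 49.0 and 59.4 CPM with RG7388 and 24.4, 24.1 and 22.5 CPM with DMSO (1.20 ± 0.14). Members of these families are similar in sequence, so their separate counts are uncertain.

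RG7388 was also given to irradiated senescent cells, in libraries that share none with the comparison above, which lets the effects be tested against each other. Of the 217 genes called higher in proliferating cells, 99 (45.6%, or 4.99% of the 1983 higher genes there) were higher and 29 (13.4%) lower in irradiated cells, where 10.9% of all genes were called higher and 11.9% lower. Of the 62 called lower, 36 (58.1%, or 1.67% of the 2151 lower genes there) were lower and 3 (4.84%) higher. For 98 of the 279 the effect differed between the states (79 of the higher and 19 of the lower genes), as it did for 7.47% of all genes (1356). The 279 were picked by their effect in proliferating cells, which enters that difference. Their share therefore cannot be set against that of all genes. Over all genes the effect was more positive in proliferating cells for 957 (5.27%) and more negative for 399 (2.2%). That split was 1502 and 267 with library totals, 1253 and 165 with limma on log2(FPKM + 1) and 1487 and 1039 with GC and length offsets.

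In 16 of the 19 panel genes, which were chosen with results of these data known, the effect of RG7388 differed between the states. CDKN1A was at 2110 ± 47.4 CPM with RG7388 and 1818 ± 95.1 CPM with DMSO in irradiated cells (SD, n = 3), where RG7388 gave no call (0.21, edgeR adjusted p = 0.158), and the difference between the effects was 1.48 ± 0.15. GDF15 went the other way in irradiated cells, at 106 ± 1.04 CPM with RG7388 against 353 ± 47.5 CPM with DMSO (-1.73). CXCL8 was at 8.93 ± 1.11 CPM with RG7388 and 635 ± 68.8 CPM with DMSO in irradiated cells (-6.14), and the difference between the effects was 5.58 ± 0.21. TNFRSF10D rose more in irradiated cells (1.86). CDKN2A fell in both states, with no difference called (0.14 ± 0.21, edgeR adjusted p = 0.781).

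**Figure D5:**
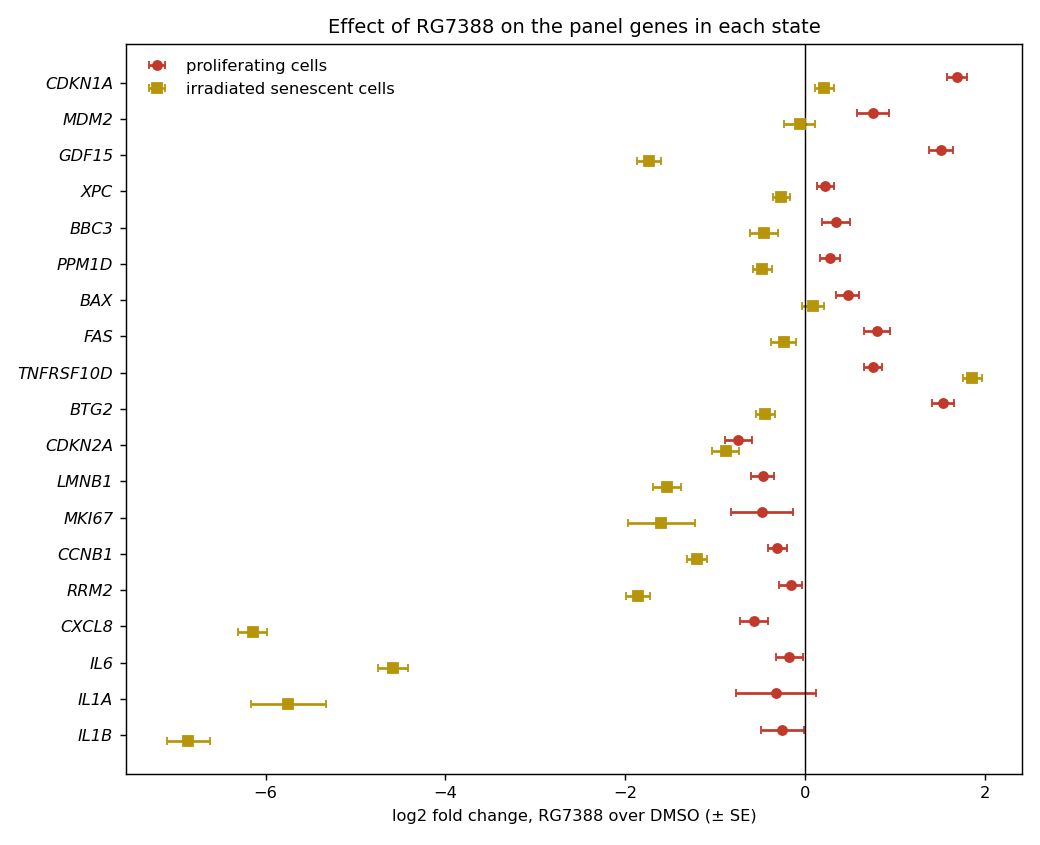
Log2 fold change of RG7388 over DMSO ± SE (x axis) of the 19 panel genes (rows) in proliferating cells (red circles) and irradiated senescent cells (yellow squares). GDF15 lies at 1.51 and -1.73 and CXCL8 at -0.56 and -6.14, while the CDKN2A values lie close together at -0.74 and -0.88.

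HDM201, another MDM2 inhibitor, was given to proliferating cells at a different dose, and its libraries were set against the same DMSO libraries, so its values are placed beside those of RG7388 without a comparison. CDKN1A was at 748 ± 43.0 CPM with RG7388, 628 ± 104 CPM with HDM201 and 231 ± 13.2 CPM with DMSO (SD, n = 3 each). MDM2 was at 64.0 ± 10.4 CPM with RG7388, 52.8 ± 17.6 CPM with HDM201 and 37.7 ± 6.14 CPM with DMSO. The log2 fold changes over DMSO were 1.51 with RG7388 and 1.20 with HDM201 for GDF15, and 1.54 and 1.27 for BTG2. For MYH11 they were -1.48 and -1.36, and for CENPE -0.92 and -0.52.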

How the data were processed

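Sample groups and replicate numbers came from the labels. The authors aligned reads with STAR to hg38 and deposited raw HTSeq counts for each gene, and the deposited FPKM values came from the authors' run of Cufflinks. No source used here names the tool versions or the authors' annotation. Gene coordinates are those of GENCODE release 44 (hg38), which matched 99.46% of gene IDs. FPKM served only in alternatives, and 262 genes with a blank FPKM beside more than 20 counts were left out of those.

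Counts were analysed in R 4.3.3 with edgeR 4.0.16: filterByExpr by group, TMM scaling and a robust quasi-likelihood fit with 1 mean per group over all 18 libraries (12 residual degrees of freedom), which share 1 estimate of the spread. p-values were adjusted over the 18151 genes with the Benjamini-Hochberg method. SE is the absolute log2 fold change over the root of F. Copies of 45 pseudoautosomal genes were left out. The script was tested on simulated data made from these counts. Alternatives used DESeq2 1.42.0, limma 3.58.1 on log2(FPKM + 1) and log2(FPKM + 0.1), other scalings and filters, a replicate block, and each library left out in turn. GC and length offsets and pairs of libraries left out were added after the data were seen.

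The comparison, the 29 gene lists and the 19 panel genes were chosen with earlier results of these data known. Named genes are the panel, the 12 called genes that rose most and the 12 that fell most, where a group mean reached 1 CPM and the groups did not overlap, the 10 smallest p in each direction, up to 6 members of each list with the smallest p, and up to 4 called members against a list. The text gives a selection of these and some other genes named where a count or list calls for them, among them the other called p53 targets, TAGLN, CNN1, CDK1 and the keratin and PSG families, which were picked after their values were seen. Lists were described by counts and medians with no set test. Some listed genes are not reported here.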

Additional observations from a re-analysis of the deposited data

Results flagged for a closer look

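In 16 of the 19 panel genes the effect of RG7388 over DMSO in proliferating cells differed from that in irradiated cells, by an interaction contrast in the edgeR fit adjusted over all 18151 genes, with 3 libraries a group. Over all genes 7.47% differed in this way, and the panel was chosen with results of these data known. Differences are given as log2 effect in proliferating minus irradiated cells. Among p53 targets the difference was 1.48 for CDKN1A (adjusted p = 4.26e-07), 3.25 for GDF15 (5.38e-11), 1.98 for BTG2 (2.47e-08), 1.04 for FAS (0.00133), 0.82 for MDM2 (0.0499), 0.49 for XPC (0.0195), 0.80 for BBC3 (0.0234) and 0.75 for PPM1D (0.00216). TNFRSF10D went the other way with -1.10 (1.51e-05), rising in both states and more in irradiated cells. Among genes of division and the lamina it was 1.06 for LMNB1 (0.00121), 0.89 for CCNB1 (0.000432) and 1.71 for RRM2 (8e-07), with edgeR log2 fold changes in irradiated cells of -1.53, -1.20 and -1.86. Among cytokines it was 5.58 for CXCL8 (4.87e-14), 4.41 for IL6 (3.15e-12), 5.43 for IL1A (8.23e-06) and 6.61 for IL1B (1.26e-11), none of which was called in proliferating cells. No difference was called by edgeR for BAX (0.39, adjusted p = 0.220), CDKN2A (0.14, 0.781) or MKI67 (1.12, 0.236).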

How the results depend on the processing

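Counts of called genes moved with the setting, in the order all, higher, lower, and at least 2-fold higher and lower. They were 279, 217, 62, 40 and 12 as reported, 532, 351, 181, 41 and 24 with DESeq2, 853, 456, 397, 41 and 21 with GC and length offsets, 310, 216, 94, 35 and 16 with at least 1 CPM in 3 libraries, 305, 206, 99, 30 and 15 with library totals, and 362, 237, 125, 43 and 33 with no filter. limma gave 139, 110, 29, 28 and 11 on log2(FPKM + 0.1), 118, 85, 33, 10 and 1 on log2(FPKM + 1) and 75, 51, 24, 9 and 2 on log2(FPKM + 1) unfiltered. The 6 libraries alone gave 1081, 619, 462, 34 and 32, leaving out IR_DMSO replicate 1 and Prolif_HDM201 replicate 3 gave 1436, 955, 481, 51 and 55, leaving out DMSO replicate 1 and RG7388 replicate 2 gave 59, 51, 8, 28 and 5, and an adjusted p under 0.01 gave 94, 76, 18, 28 and 7. Leaving out 1 library gave 94 to 134, 77 to 107, 14 to 27, 28 to 36 and 6 to 11, and without DMSO replicate 1 the first count was 94. The share of higher calls was 77.8% as reported, 66.0% with DESeq2, 53.5% with GC and length offsets, 67.5% with library totals, which moved the median of all genes to -0.059, 65.5% with no filter and 57.3% on the 6 libraries.

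The interaction count was 1356, with 2526 under GC and length offsets, 2098 on the 12 libraries, 2204 without IR_DMSO replicate 1 and Prolif_HDM201 replicate 3, 775 at an adjusted p under 0.01 and 991 to 1268 with 1 library left out. With group means removed, correlations were -0.014, 0.13 and -0.017 between same-numbered RG7388 and DMSO libraries. Between differently numbered ones they ran from -0.084 to 0.089. With 3 libraries a group these values cannot decide whether replicate numbers pair the samples. A replicate block gave 237, 185, 52, 38 and 11 calls and an interaction count of 1319. The cause of these shifts was not tested. With 3 libraries a group, small changes near the threshold were not stable, and absence of a call is not absence of a change.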
